A study of Mus musculus with 12 samples.

Results

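The mouse mitochondrial chromosome carries 37 genes, of which 13 encode proteins of the respiratory chain, 2 encode ribosomal RNAs and 22 encode transfer RNAs. They were taken as every gene whose symbol starts with mt-, after the Ensembl identifiers of the files had been matched to GENCODE M21 (mm10), and are 37 of 38924 genes counted. The 12 bulk RNA-seq libraries came from C57BL/6 mice that carried the ROSAmTmG reporter in all groups, together with either Myf5-Cre or Ucp1-iCre. In this reporter, recombination turns membrane tdTomato into membrane GFP, so GFP marks cells in which Cre was once active and the descendants of those cells. Myf5 is a transcription factor of the muscle lineage, and Ucp1 is the uncoupling protein of brown fat. From both lines, mammary myoepithelial cells with and without GFP were sorted as Lin-, CD24+ and CD29hi at lactation day 10, and brown adipocytes with GFP came from virgin females of 8 weeks (n = 2 libraries in each of the 6 groups). Brown adipocytes without GFP were not analysed here. The labels do not say whether the libraries of a group came from separate or pooled animals, so p-values reflect the spread of these libraries, which may be technical. Nor do they say whether cells with and without GFP of a line came from the same animals. Tests that pool such libraries take them as independent.

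Mitochondrial DNA is transcribed from both strands as long precursors, and the tRNAs that punctuate them are cut out to release the mRNAs and rRNAs. The mRNAs encode core subunits of complex I (mt-Nd1 to mt-Nd6 and mt-Nd4l), complex III (mt-Cytb), complex IV (mt-Co1 to mt-Co3) and the ATP synthase (mt-Atp6 and mt-Atp8), and mt-Nd6 is the one mRNA encoded on the opposite, light strand. All other subunits, the mitochondrial RNA polymerase and the proteins of the mitochondrial ribosome come from nuclear genes. Brown adipocytes are rich in mitochondria, whose respiration they uncouple to make heat. The nuclear genome holds pasted copies of mitochondrial DNA, and a read that matches a gene and its copy equally well has no unique place.

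Such copies bear on these counts. Of all 31-base sequences in each gene, the share that also occurs in an annotated nuclear transcript of GENCODE M21 was 100% for mt-Co2, 99.9% for mt-Co3, 99.5% for mt-Atp6, 98.9% for mt-Nd4l and 98.1% for mt-Nd3. These 5 mRNAs are called whole-copy genes below (95% or more). It was 63.9% for mt-Co1 and 62.8% for mt-Nd4, called part-copy genes (50% to 95%). The other 6 mRNAs shared little with annotated nuclear transcripts. The share was 16.8% for mt-Nd5, 13.5% for mt-Nd2, 7.47% for mt-Atp8, 7.36% for mt-Nd6, 6.55% for mt-Cytb and 0% for mt-Nd1. The shared stretches came mainly from 7 unprocessed pseudogenes side by side on the minus strand of chromosome 1 (mm10, 24611535 to 24616197), which copy mt-Co1 to mt-Nd4 in their mitochondrial order, with no annotated pseudogene for mt-Atp8. Gm28661, Gm10925, Gm28437, Gm10222 and Gm28439 had 0 mismatches to mt-Co2, mt-Atp6, mt-Co3, mt-Nd4l and mt-Nd4 over 681, 678, 783, 294 and 876 aligned bases. Gm28438 differed from mt-Nd3 at 1 of 345 bases, and Gm29216 differed from mt-Co1 at 6 of 492. Nuclear sequence outside annotated transcripts was not searched. That includes the stretch between Gm10925 (ending at 24614651) and Gm28661 (starting at 24614885), where mt-Atp8 would fall in the mitochondrial order. The share given for mt-Atp8 may therefore be too low.

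The differing stretches are shown because they are the few places where a read could tell these copies from the mitochondrial gene. Positions count from 1 at the gene's first base, the mitochondrial base is named first, and capitals mark the mismatches. In mt-Nd3 (chrM:9459-9806) the substitution was T3C, shown with bases 1 to 17.
mt-Nd3: atTaacctgtacactgt
Gm28438: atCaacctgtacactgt
In mt-Co1 (chrM:5328-6872) the substitutions were T1056A, C1057T, A1059G, A1060G, C1062A and A1066T, shown with bases 1054 to 1080, where the copy begins.
mt-Co1: ggTCtAAcCggaAttgttttatccaac
Gm29216: ggATtGGcAggaTttgttttatccaac
The gene mt-Nd4l (chrM:9877-10173, plus strand) is shown whole, since its first 294 bases match the copy without a mismatch and its last 7 bases, in capitals, lie inside mt-Nd4.
mt-Nd4l: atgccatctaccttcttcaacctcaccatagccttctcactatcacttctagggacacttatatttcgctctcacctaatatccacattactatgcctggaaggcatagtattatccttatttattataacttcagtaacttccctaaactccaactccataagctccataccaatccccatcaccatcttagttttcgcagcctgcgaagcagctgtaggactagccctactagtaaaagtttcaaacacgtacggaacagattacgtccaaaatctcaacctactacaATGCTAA
The gene mt-Atp8 (chrM:7766-7969, plus strand) is shown because its counts ran against those of its neighbour mt-Atp6, which shares the 43 bases in capitals.
mt-Atp8: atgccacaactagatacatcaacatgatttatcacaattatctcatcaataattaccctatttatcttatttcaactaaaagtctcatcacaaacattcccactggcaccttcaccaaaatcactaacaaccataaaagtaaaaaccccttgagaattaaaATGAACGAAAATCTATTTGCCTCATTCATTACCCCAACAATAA
The serine tRNA gene mt-Ts1 (chrM:6870-6938, minus strand) is shown because it had the most counts of any mitochondrial tRNA gene, and its last 3 bases, in capitals, lie opposite the end of mt-Co1.
mt-Ts1: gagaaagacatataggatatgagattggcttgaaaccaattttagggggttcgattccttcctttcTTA

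The mammary and brown adipocyte files differed in which of these genes had any counts. Both rRNA genes and all 22 tRNA genes had 0 counts in all 8 mammary libraries. In the 4 brown adipocyte libraries mt-Rnr1, the small-subunit rRNA, had 20377 to 56510 counts, mt-Rnr2, the large-subunit rRNA, had 186939 to 516477, and 8 tRNA genes had counts. The same split ran through other short RNAs: of 5716 nuclear genes for miRNA, snRNA, snoRNA, scaRNA, rRNA and miscellaneous RNA, 1 had a count in a mammary library and 661 had a count in a brown adipocyte library. Antisense genes held 0.0748% to 0.176% of mammary counts and 0.622% to 1.26% of brown adipocyte counts. Tissue, reproductive state and the way the files were counted therefore cannot be told apart in any gene. The split was plainest in rRNAs, tRNAs and whole-copy genes. Of the 7 copies on chromosome 1, the files list Gm10222, with 0 to 41 counts per library. The strand setting of the counting is not given in the sources used here. Reads of genes on opposite strands that overlap, such as mt-Nd6 with mt-Nd5 (14 bases), therefore cannot be told apart. Both strands are transcribed as long precursors, so the limit is not confined to such overlaps. Counts on mt-Nd6 and the minus-strand tRNA genes may include reads of the opposite strand's transcript.

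Library totals ran from 11027738 to 32956480 counts. Those of Ucp1 GFP-positive myoepithelial cells stood apart, with 10909 and 10560 genes detected against 13761 to 19794 in the other 10, and the lowest correlation between replicates (r = 0.601 across genes on the log2 scale). Markers fitted the tissues only in part. Brown adipocytes had Ucp1 at 950 to 16436 CPM (counts scaled to library size with TMM factors). Their 10 myoepithelial markers summed to 25.2 to 200 CPM, with Krt5, Krt14 and Krt17 at 0. The mammary libraries had the 10 myoepithelial markers at a summed 1554 to 18666 CPM, but 7 luminal and milk markers at 9188 to 68089 CPM, and the Myf5 GFP-positive ones had 5 fibroblast markers at 8812 and 16667 CPM, against 36.4 to 2390 CPM elsewhere. In the Ucp1 GFP-positive myoepithelial libraries 4 endothelial markers summed to 3736 and 5647 CPM, above their myoepithelial markers at 1554 and 3386 CPM. The other mammary libraries had endothelial sums of 478 to 3557 CPM. The 10 brown adipocyte markers summed to 2528 to 15966 CPM in mammary libraries, with Fabp4 alone at 2168 to 14606 CPM. Ucp1 itself was at 0 in all 4 GFP-positive myoepithelial libraries, and the myoepithelial factor Trp63 was at 0 in the second of the Ucp1 line. Summed immune markers (4 genes) ran from 3.54 to 1591 CPM and skeletal muscle markers (5 genes) from 0 to 341 CPM over all libraries. Their part in the results was not tested. In bulk RNA, fewer cells of a type and less RNA per cell cannot be told apart.

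**Figure D1:**
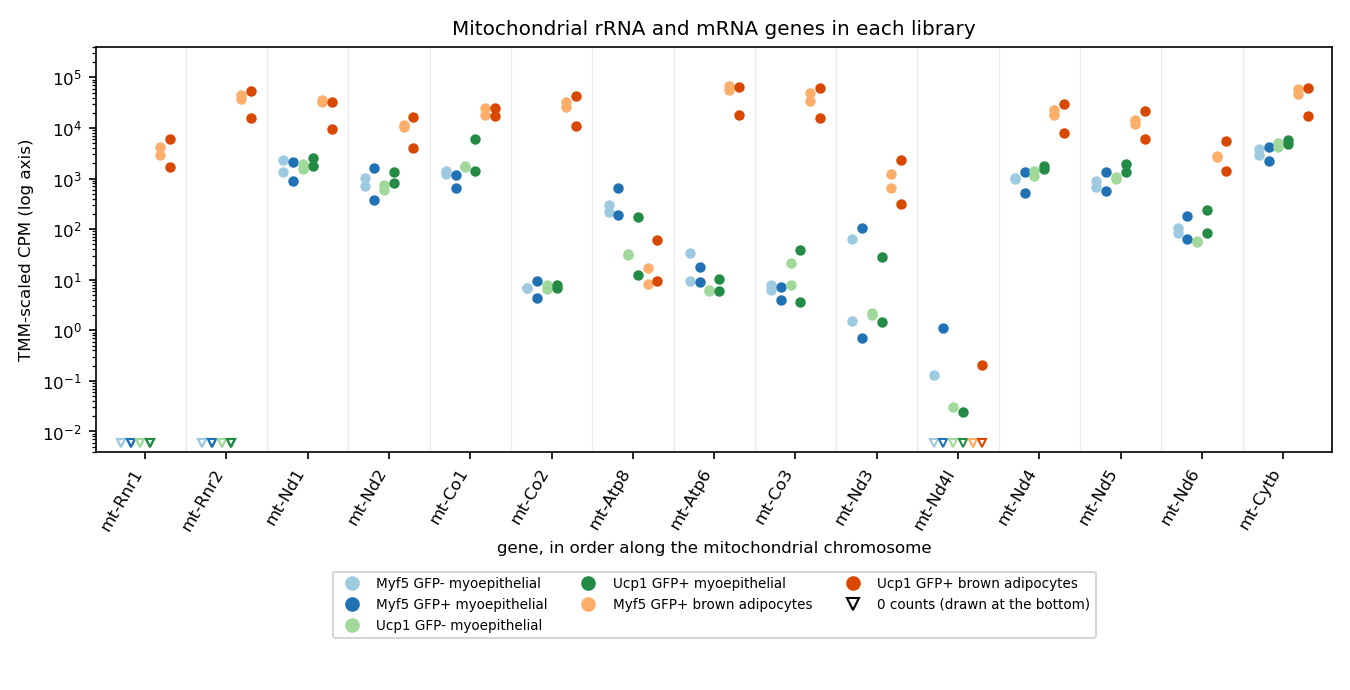
TMM-scaled CPM (log axis) of the 2 rRNA and 13 mRNA genes in each of the 12 libraries, in chromosome order; each point is a library, coloured by group, and open triangles are libraries with 0 counts. Brown adipocytes lie above mammary cells for most genes, by thousands-fold for mt-Co2, mt-Atp6 and mt-Co3, while mt-Atp8 runs the other way and mt-Nd4l is near 0 in both tissues.

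In mammary myoepithelial cells, the genes of the mitochondrial chromosome took 0.648% to 2.45% of all counts. The share was 1.36% and 0.648% in the Myf5 GFP-positive libraries, 1.11% and 0.987% in the Myf5 GFP-negative ones, 2.45% and 1.47% in the Ucp1 GFP-positive ones and 1.13% and 1.28% in the Ucp1 GFP-negative ones. The highest and the lowest library were both GFP-positive, and the groups with and without GFP overlapped. The 4 GFP-positive libraries had 1.48% ± 0.740 and the 4 GFP-negative ones 1.13% ± 0.119 (SD, n = 4 each; exact two-sided permutation test, p = 0.486, adjusted p = 0.883 over the 20 tests of shares). Between the lines, the 4 Ucp1 libraries had 1.58% ± 0.592 and the 4 Myf5 libraries 1.03% ± 0.295 (SD, n = 4 each; exact two-sided permutation test, p = 0.114, adjusted p = 0.327).

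**Figure D2:**
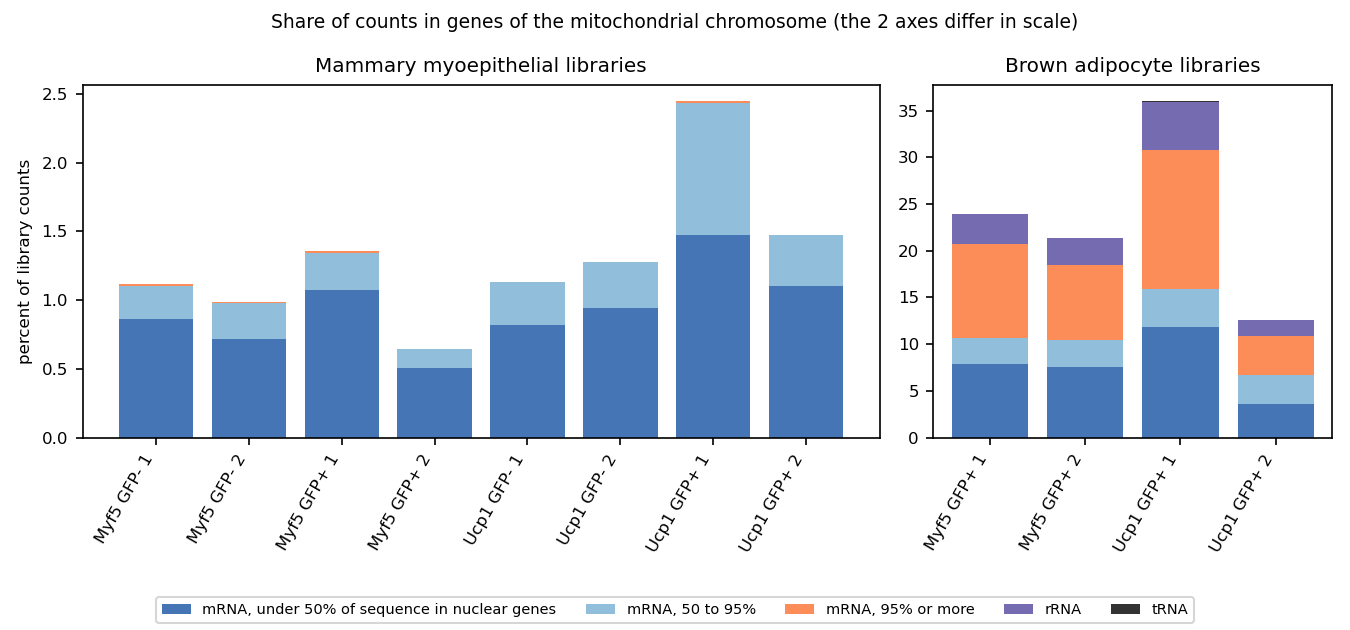
Percent of library counts in genes of the mitochondrial chromosome, one stacked bar per library, mammary libraries on the left and brown adipocyte libraries on the right with different vertical scales. The mammary bars reach 0.648% to 2.45% and hold almost none of the whole-copy mRNAs (orange) and no rRNA, while the brown adipocyte bars reach 12.6% to 36.0%.

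Per kilobase of gene, the complex III mRNA mt-Cytb led in the mammary cells among the mRNAs that are not whole-copy genes. Since whole-copy genes are left out and mt-Co1 and mt-Nd4 are part-copy genes, this does not rank the complexes. Median levels over the 8 libraries, in CPM per kilobase, were 3678 for mt-Cytb, 1930 for mt-Nd1, 909 for mt-Co1, 890 for mt-Atp8, 879 for mt-Nd4, 749 for mt-Nd2, 561 for mt-Nd5 and 162 for mt-Nd6. Across the libraries mt-Cytb ranged from 1913 to 5041 CPM per kilobase and mt-Nd1 from 921 to 2687, and the light-strand mRNA mt-Nd6 from 108 to 454. Within each library mt-Cytb lay above mt-Nd1, though across libraries the ranges overlapped for every pair of neighbours in this order. The groups differed in it: mt-Atp8 averaged 2073 and 1252 CPM per kilobase in Myf5 cells with and without GFP but 461 and 156 in Ucp1 cells, where it ranked 7 in both groups, and mt-Co1 ranked 6 in Myf5 and 2 in Ucp1 GFP-positive cells. Reads placed on whole-copy genes were few: mt-Co2 had 123 to 285 counts per library, mt-Atp6 143 to 844, mt-Co3 113 to 1076, mt-Nd3 20 to 1656 and mt-Nd4l 0 to 18. These 5 genes together held 0.504% ± 0.297 of the mitochondrial mRNA counts (SD, n = 8).

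The share in whole-copy genes was higher in Myf5 than in Ucp1 mammary libraries, without overlap. In the Myf5 line it was 1.02% and 0.496% with GFP and 0.808% and 0.605% without. In the Ucp1 line it was 0.426% and 0.151% with GFP and 0.222% and 0.306% without. The means were 0.732% ± 0.231 and 0.276% ± 0.118 (SD, n = 4 each; exact two-sided permutation test, p = 0.0286, the smallest that 4 against 4 can give, adjusted p = 0.114). The difference did not pass after adjustment, but no comparison of 4 against 4 libraries could have. Some of the 20 tests of shares compared rRNA or tRNA shares that were 0 in every mammary library. Others compared the brown adipocyte lines, where p could not go below 0.33. The adjusted p therefore cannot decide whether the lines differ in the whole-copy share. The make-up of this share differed between libraries. The counts of mt-Nd3 were 1656 and 20 in the Myf5 GFP-positive libraries, 1465 and 37 in the Myf5 GFP-negative ones, 758 and 59 in the Ucp1 GFP-positive ones and 68 and 71 in the Ucp1 GFP-negative ones. In 3 of the 4 mammary groups 1 library held nearly all reads of this complex I gene.

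No gene of the chromosome was called between GFP-positive and GFP-negative cells of either line. A gene was called at an adjusted p under 0.05 in edgeR's quasi-likelihood test, Benjamini-Hochberg adjusted over 16953 genes. Of the 37 genes, 22 passed the count filter: 12 mRNAs, both rRNAs and 8 tRNAs. The rRNAs and tRNAs passed through their brown adipocyte counts alone, so in mammary comparisons the 12 mRNAs are what was tested. The remaining 15 were mt-Nd4l and 14 tRNA genes with 0 counts in every library.

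In the Myf5 line, 0 of the 12 mRNAs were called with GFP (0% of all genes were; 0 mRNAs and 9.28% of all genes had an unadjusted p under 0.05, and DESeq2 and limma-voom called 0 mRNAs). The log2 differences, GFP-positive over GFP-negative, were above 0 for 6 mRNAs and below 0 for 6, with a median of -0.03 against -0.06 for all genes. For mt-Co1, the catalytic core of complex IV, levels were 1169 and 647 CPM with GFP and 1412 and 1239 CPM without (log2 difference -0.55 ± 0.64 SE, edgeR adjusted p = 1). It was the 1 mRNA of 12 whose groups did not overlap on the lower side (20.2% of all genes), and 0 of 12 did so on the higher side (14.5%). For mt-Cytb they were 4205 and 2189 CPM against 3842 and 2897 CPM. The GFP-positive pair spanned the GFP-negative pair for mt-Cytb, and the second GFP-positive library was the lower of its pair for every complex I mRNA with little or no nuclear copy.

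In the Ucp1 line, 0 of the 12 mRNAs were called with GFP, where 14.3% of all genes were called, nearly all of them lower (14% lower, 0.277% higher). With an unadjusted p under 0.05 there were 0 mRNAs, against 30.9% of all genes, and DESeq2 and limma-voom called 0 mRNAs. All 12 log2 differences lay above 0, from 0.04 to 2.79, with a median of 0.63 against -0.69 for all genes tested. The smallest adjusted p was 0.219, for mt-Nd6, whose levels were 235 and 84.6 CPM with GFP and 56.1 and 59.5 CPM without (log2 difference 1.47 ± 0.74 SE, edgeR). For mt-Nd5, another complex I subunit, they were 1975 and 1331 CPM against 964 and 1083 CPM, again without overlap. In all, 4 of 12 mRNAs, all of complex I (mt-Nd2, mt-Nd4, mt-Nd5 and mt-Nd6), lay higher without overlap, where 11.8% of all genes did. None of the 12 lay lower without overlap, where 48.1% of all genes did. The first GFP-positive library carried much of this.

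That library had mt-Co1 at 6123 CPM, against 1397 CPM in its replicate and 1689 and 1770 CPM without GFP. Without it, 7 of the 13 mRNAs then tested lay above 0, the median was -0.02 and the mt-Co1 difference turned to -0.32 (log2, edgeR adjusted p = 0.756). Scaling on nuclear genes alone kept all 12 differences above 0 and raised the count without overlap to 7 of 12 (13.6% of all genes). Other marker levels moved with GFP in this line. The myoepithelial markers summed to 1554 and 3386 CPM with GFP and 11215 and 12936 CPM without. The luminal and milk markers summed to 11112 and 13522 CPM against 61944 and 68089 CPM. Endothelial markers did not fall, with sums of 3736 and 5647 CPM against 3557 and 3294 CPM. Their part in the result was not tested. The difference of the GFP effect between the lines, tested as an interaction added after the data were seen, was called by edgeR for 0 of 12 mRNAs (smallest adjusted p = 0.32, mt-Co1), where 11% of all genes were called. An unadjusted p under 0.05 was seen for 0 mRNAs and 24% of all genes.

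**Figure D3:**
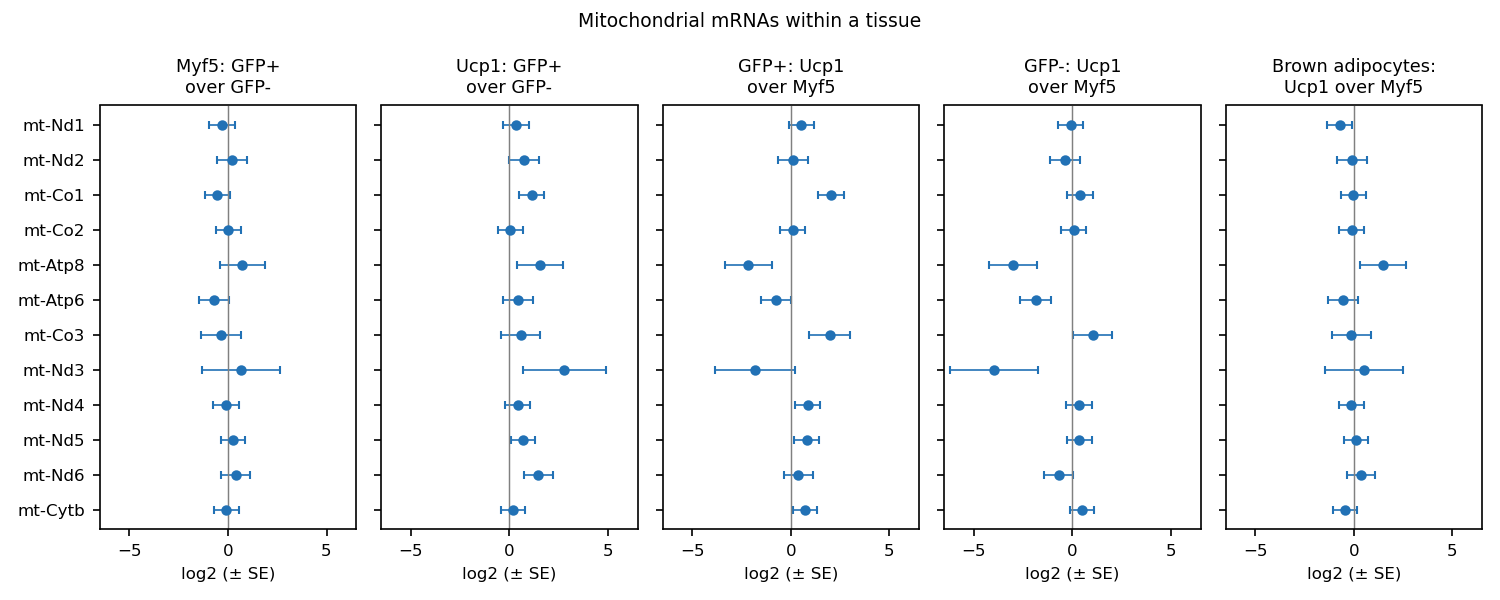
Log2 differences (points) with standard errors (bars) of the 12 tested mitochondrial mRNAs in 5 comparisons within a tissue, from edgeR. No gene was called in any panel; the Ucp1 GFP comparison has all points above 0, and mt-Co1 reaches 2.05 between the lines among GFP-positive cells.

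Between the lines, GFP-positive myoepithelial cells differed most in mt-Co1 and mt-Atp8. The level of mt-Co1 was 6123 and 1397 CPM in Ucp1 cells and 1169 and 647 CPM in Myf5 cells (log2 difference, Ucp1 over Myf5, 2.05 ± 0.67 SE; edgeR adjusted p = 0.063). Again 0 of 12 mRNAs were called, where 17.3% of all genes were. Here mt-Co1 was the mRNA with an unadjusted p under 0.05 (34.8% of all genes), and DESeq2 called it (adjusted p = 0.0226) while limma-voom called 0. Without overlap, 4 of 12 mRNAs lay higher (13.6% of all genes) and 1 lower (29.9%). For mt-Atp8, a small ATP synthase subunit, levels were 176 and 12.4 CPM against 658 and 188 CPM (log2 difference -2.17 ± 1.18 SE, edgeR adjusted p = 0.226). Without the first Ucp1 library mt-Atp8 was called lower (log2 -5.09, adjusted p = 0.0167), and without the second mt-Co1 and mt-Co3 were called higher. The calls in this comparison therefore turn on which of the 2 Ucp1 libraries is kept.

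GFP-negative cells of the lines gave 0 called of 12 mRNAs (0% of all genes; 2 mRNAs and 3.56% of all genes had an unadjusted p under 0.05, and DESeq2 and limma-voom called 0 mRNAs). Without overlap, 4 of 12 lay higher in Ucp1 cells (30.4% of all genes) and 3 lower (17.8%). The 2 mRNAs were the ATP synthase pair. For mt-Atp8 the levels were 31.2 and 32.3 CPM in Ucp1 and 216 and 295 CPM in Myf5 cells (log2 difference -3.01 ± 1.23 SE, edgeR adjusted p = 1). For mt-Atp6 they were 6.13 and 5.93 CPM against 9.59 and 34.2 CPM (log2 difference -1.86 ± 0.78 SE, edgeR adjusted p = 1), and without the second Myf5 library the difference was -0.66. The groups did not overlap for either gene, but neither passed after adjustment.

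In brown adipocytes the chromosome took 23.9% and 21.4% of counts in the Myf5 libraries and 36.0% and 12.6% in the Ucp1 libraries. The Ucp1 pair thus enclosed the Myf5 pair (exact two-sided permutation test, p = 1; 2 against 2 cannot go below 0.33). Most of these counts were mRNA. The rRNAs held 13.1% to 14.4% of the mitochondrial counts and the tRNA genes 0.106% to 0.648%. Per kilobase, the median levels over the 4 libraries were 89010 CPM for mt-Atp6, 53441 for mt-Co3, 46758 for mt-Cytb, 43326 for mt-Co2, 34013 for mt-Nd1 and 26202 for mt-Rnr2. Below them came mt-Nd4 with 14756, mt-Co1 with 13932, mt-Nd2 with 10436, mt-Nd5 with 7158, mt-Ts1 with 5971, mt-Nd6 with 5318, mt-Rnr1 with 3706 and mt-Nd3 with 2752. The ranges of neighbours in this order overlapped, since the lowest and the highest library differed by 3.56-fold (mt-Cytb) to 4.0-fold (mt-Nd2) for 9 of the mRNAs, and by 7.49-fold for mt-Nd3. Within each library mt-Atp6 lay above mt-Co3.

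The second Ucp1 library was the lowest of the 4 for most mRNAs, but not for mt-Co1. Levels of mt-Cytb were 58878 and 48104 CPM in the Myf5 libraries and 60834 and 17080 CPM in the Ucp1 libraries. Levels of mt-Nd1 were 32911 and 35942 CPM against 32191 and 9392 CPM. For mt-Co1 they were 18272 and 24778 CPM against 17044 and 25099 CPM, a range of 1.47-fold over the 4 libraries, and here the second Ucp1 library was the highest. Its neighbour on the opposite strand, mt-Ts1, was also highest there, with 331 and 392 CPM in the Myf5 and 432 and 783 CPM in the Ucp1 libraries, or 1.58 to 3.12 counts per 100 counts of mt-Co1. It was the 1 of 22 tested members that lay higher in the Ucp1 libraries without overlap, where 31.3% of all genes did. Gm13340, a nuclear copy of mt-Co1 on chromosome 2 (22588103 to 22589647, 45.2% of its 31-base sequences shared), was also highest in the second Ucp1 library, with 2764 and 3722 counts in the Myf5 and 3093 and 5644 in the Ucp1 libraries. Per 100 counts of mt-Co1 this copy had 1.38 to 1.91, against 0 to 0.0373 in mammary libraries, where it had 0 to 9 counts.

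Of the 22 tRNA genes, 8 had counts in brown adipocytes. After mt-Ts1 came the glutamine tRNA mt-Tq, with 119 and 195 counts in the Myf5 and 131 and 346 in the Ucp1 libraries, and the proline tRNA mt-Tp, with 212 and 260 against 264 and 146. The other 5 were mt-Te with 46 to 211 counts, mt-Ty with 23 to 249, mt-Ta with 3 to 64, mt-Tt with 18 to 37 and mt-Tw with 2 to 9. Those annotated on the minus strand were mt-Ts1, mt-Tq, mt-Tp, mt-Te, mt-Ty and mt-Ta. All of them except mt-Tp were highest in the second Ucp1 library, in CPM as in counts. The tRNA share of mitochondrial counts there was 0.648%, against 0.106%, 0.150% and 0.116% in the other 3 libraries.

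Between the lines, 0 of 22 tested genes were called in brown adipocytes, where 1.32% of all genes were (0 members and 13.1% of all genes had an unadjusted p under 0.05, and DESeq2 and limma-voom called 0 members). Over the 12 mRNAs the median log2 difference, Ucp1 over Myf5, was -0.11, with 4 above 0 and 8 below. Without the first Ucp1 library that median was -1.40, and without the second it was 0.54. The lowest estimate among the mRNAs was that of mt-Nd1 (log2 difference -0.73 ± 0.65 SE, edgeR adjusted p = 0.754; -1.87 without the first Ucp1 library and -0.10 without the second), the 1 mRNA of 12 that lay lower in Ucp1 libraries without overlap (28.3% of all genes). With scaling on nuclear genes alone it overlapped. The mt-Nd6 share, counts on mt-Nd6 over all mitochondrial mRNA counts, was 0.895% and 1.01% in Myf5 and 1.58% and 1.23% in Ucp1 libraries (exact two-sided permutation test, p = 0.33, the smallest 2 against 2 can give, adjusted p = 0.667). In mammary cells this share was 1.15% ± 0.278 in the Myf5 and 0.733% ± 0.309 in the Ucp1 line (SD, n = 4 each; exact two-sided permutation test, p = 0.0857, adjusted p = 0.286).

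Across tissues, the genes of the mitochondrial chromosome took a far larger share of counts in the brown adipocyte than in the mammary libraries. Tissue, reproductive state and the way the files were counted cannot be told apart in any of these genes. The chromosome took 23.5% ± 9.65 of counts (SD, n = 4) in brown adipocytes and 1.30% ± 0.525 (SD, n = 8) in mammary libraries, with no overlap (exact two-sided permutation test, p = 0.00202, the smallest that 4 against 8 can give, adjusted p = 0.0101). The gap is smaller in 5 of the 6 mRNAs that share little with annotated nuclear transcripts. The sixth, mt-Atp8, was left out of this set and ran the other way. Together mt-Nd1, mt-Nd2, mt-Nd5, mt-Nd6 and mt-Cytb took 7.93%, 7.52%, 11.8% and 3.57% of counts in the brown adipocyte libraries and 0.484% to 1.45% in the mammary ones, again with no overlap. The whole-copy mRNAs held 44.8% ± 4.68 of mitochondrial mRNA counts in brown adipocytes (SD, n = 4), against the 0.504% of the mammary libraries (exact two-sided permutation test, p = 0.00202, adjusted p = 0.0101). Here too tissue cannot be told apart from the way the files were counted. The same holds for the total share, with its rRNA and whole-copy part, and for the 5 mRNAs.

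In the Myf5 line, 10 of 12 tested mRNAs were called higher in brown adipocytes than in GFP-positive myoepithelial cells (8.84% of all genes were) and 1 was called lower (10.9% of all genes). In the Ucp1 line 10 were called higher (22.5% of all genes) and 0 lower (5.34%). Without overlap, 11 lay higher in each line (33.8% of all genes in the Myf5 and 41.1% in the Ucp1 line), and 1 and 0 lower (33.1% and 16.6%). Among the mRNAs with little or no nuclear copy, mt-Nd1 rose by a log2 of 4.51 ± 0.75 SE in the Myf5 line (edgeR adjusted p = 0.00432) and 3.25 ± 0.71 SE in the Ucp1 line (adjusted p = 0.0103). The complex III mRNA mt-Cytb rose by 4.06 ± 0.69 SE (edgeR adjusted p = 0.00474) and 2.89 ± 0.65 SE (adjusted p = 0.0121). The light-strand mRNA mt-Nd6 rose by 4.49 ± 0.84 SE and 4.46 ± 0.84 SE, and the other 2, mt-Nd2 and mt-Nd5, by 3.43 and 3.78 in the Myf5 line and 3.21 and 3.10 in the Ucp1 line. These 5 mRNAs of complexes I and III were called higher in both lines, while mt-Atp8, the remaining mRNA of this class, had estimates below 0. The mt-Nd2 call was lost in the Myf5 line without any 1 of 3 libraries (both brown adipocyte ones and the second myoepithelial one), and in the Ucp1 line without the second myoepithelial or the first brown adipocyte library. With the 4 Ucp1 libraries fitted alone, edgeR called 0 members and 0 of 13528 genes.

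The part-copy genes rose by about as much. The log2 rise of mt-Co1 was 4.57 in the Myf5 line and 2.49 in the Ucp1 line, and that of mt-Nd4, a complex I subunit, was 4.46 and 3.49 (edgeR adjusted p = 0.00395 to 0.0251 for these 4). In the Ucp1 line the mt-Co1 call was lost without the second myoepithelial (adjusted p = 0.0732) or the second brown adipocyte library (adjusted p = 0.0914). Of the whole-copy genes, 3 stood far above both classes. The estimates for mt-Co2 were 12.05 and 11.84, for mt-Atp6 12.15 and 12.34, and for mt-Co3 12.89 and 10.80, with brown adipocyte levels of 11068 to 68111 CPM and mammary levels of 3.57 to 39.6 CPM. As ratios of the tissue medians, mt-Co2 was 4268-fold, mt-Co3 5562-fold and mt-Atp6 6556-fold higher, against 12.7-fold for mt-Cytb, 12.8-fold for mt-Nd5, 17.6-fold for mt-Nd1 and 32.8-fold for mt-Nd6. For mt-Nd3 the ratio was 454-fold, but edgeR called it in neither line (adjusted p = 0.212 and 0.0806). DESeq2 (adjusted p = 0.00182), limma-voom (adjusted p = 0.0486) and edgeR with a replicate block (adjusted p = 0.0275) called it in the Ucp1 line.

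**Figure D4:**
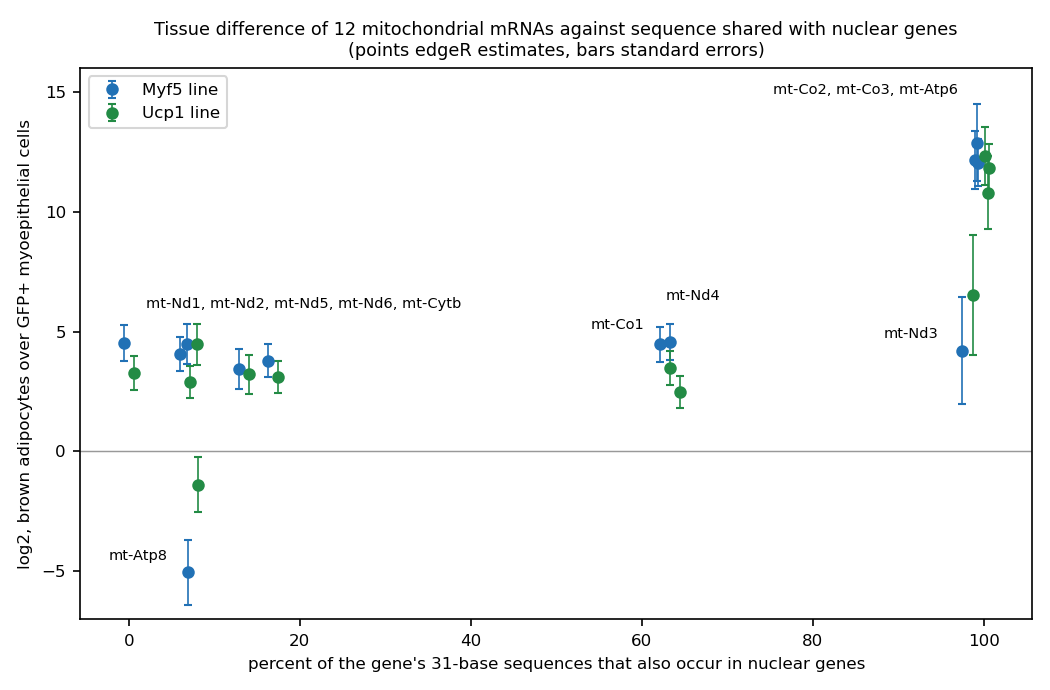
Log2 difference of 12 mitochondrial mRNAs between brown adipocytes and GFP-positive myoepithelial cells (points, bars standard errors, blue Myf5 line, green Ucp1 line). The horizontal axis is the percent of 31-base sequences shared with annotated nuclear transcripts, with the lines drawn slightly apart. For mt-Atp8 this percent may be too low, since the sequence between Gm10925 and Gm28661 was not searched. Genes from 0% to 63.9% lie between 2.49 and 4.57 except mt-Atp8, which lies below 0, mt-Nd3 lies at 4.21 and 6.53, and mt-Co2, mt-Co3 and mt-Atp6 lie between 10.80 and 12.89.

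Of the 12 mRNAs tested, mt-Atp8 was the one with estimates below 0 in both lines. It had 512 to 10572 counts in mammary and 91 to 594 in brown adipocyte libraries. In the Myf5 line its levels were 17.2 and 8.34 CPM in brown adipocytes and 658 and 188 CPM in GFP-positive myoepithelial cells (log2 difference -5.05 ± 1.35 SE, edgeR adjusted p = 0.0305), and limma-voom did not call it (adjusted p = 0.157). The edgeR call was also lost without the first myoepithelial library or either brown adipocyte library (adjusted p = 0.115 to 0.169). In the Ucp1 line they were 62.4 and 9.61 CPM against 176 and 12.4 CPM, which overlapped (log2 difference -1.39 ± 1.16 SE, edgeR adjusted p = 0.405; 1.53 without the first myoepithelial library). Both ATP synthase genes lie on a shared transcript. Yet per 100 counts of mt-Atp6 the libraries had 0.0151 to 0.0946 counts of mt-Atp8 in brown adipocytes and 212 to 7393 in mammary cells. Whether an unannotated nuclear copy of mt-Atp8 bears on this was not tested. The other overlapping pair, mt-Nd4l and mt-Nd4, likewise share a transcript, and mt-Nd4l had 0 to 18 counts per library where mt-Nd4 had 14823 to 280906.

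For the genes at 0 in the mammary files, fold differences are lower bounds, set against 3 counts in the pooled total of the 2 mammary libraries. The bound was at least 52486-fold for mt-Rnr1 and 614724-fold for mt-Rnr2 in the Myf5 line and at least 87443-fold and 799869-fold in the Ucp1 line. For mt-Ts1 it was at least 5360-fold and 13861-fold. Both rRNAs and 6 of the 8 tRNAs (mt-Ts1, mt-Tq, mt-Tp, mt-Te, mt-Tt and mt-Ty) were called higher in both lines, and mt-Tw and mt-Ta in neither. These genes could pass the filter only where they were high, and short nuclear RNAs were at 0 in the same files, so the bounds describe the files and not the cells alone. The tissue difference was called as different between the lines for 0 of the 12 mRNAs (edgeR interaction added after the data were seen; 13.2% of all genes were called), and the rRNAs and tRNAs, at 0 in the mammary libraries, give no test of it. The smallest adjusted p was 0.174, for mt-Co1, the 1 mRNA with an unadjusted p under 0.05 (28.1% of all genes).

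The nuclear partners of these genes were also higher in brown adipocytes. Of 37 nuclear complex I genes, 31 were called higher in the Myf5 line (8.84% of all genes were) and 34 in the Ucp1 line (22.5%), with median log2 differences of 3.03 and 3.63 against -0.14 and 0.69 for all genes. For complex III 8 and 9 of 9 were called higher, for complex IV 10 and 11 of 12, and for the ATP synthase 10 and 13 of 16. The complex III subunit Uqcr11 had 926 and 911 CPM in Myf5 brown adipocytes and 77.5 and 43.1 CPM in Myf5 GFP-positive myoepithelial cells (log2 difference 3.93 ± 0.46 SE, edgeR adjusted p = 0.00114). Called lower in both lines were Atp5g2 and Atp5g1, which encode the same ATP synthase subunit: Atp5g2 had 0 to 0.366 CPM in brown adipocytes and 20.0 to 104 CPM in mammary libraries, and Atp5g1 0.733 to 6.51 CPM against 22.1 to 108 CPM. Atp5g3, which also encodes this subunit, ran the other way, with 348 to 490 CPM against 54.0 to 208 CPM. In the Myf5 line the ATP synthase gene Atp5l and the complex IV gene Cox7c were also called lower. Copies of nuclear genes elsewhere in the genome were not sought. Whether the way the files were counted bears on these lower calls was not tested. For transcription and replication of the chromosome 0 and 6 of 17 were called higher, for RNA processing and decay 4 and 9 of 19, and for the mitochondrial ribosome 11 and 15 of 25. Of 9 PGC-1 and NRF regulators, which drive mitochondrial gene programmes, 2 and 2 were called higher and 1 and 2 lower (10.9% and 5.34% of all genes were called lower), numbers too small to set apart from these shares.

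The balance of both genomes differed between libraries. The summed CPM of mt-Nd1, mt-Nd2, mt-Nd5 and mt-Nd6 over that of the 37 nuclear complex I genes was 1.51 and 0.979 with GFP and 1.29 and 1.08 without in Myf5 myoepithelial cells, and 6.32 and 4.25 with and 2.08 and 1.89 without in Ucp1 ones. It was 2.64 and 2.64 in Myf5 and 9.49 and 1.55 in Ucp1 brown adipocytes. The sparse Ucp1 GFP-positive myoepithelial libraries and the first Ucp1 brown adipocyte library were the highest. In the mammary pair the nuclear sum was the low one, at 974 and 947 CPM against 1534 and 2001 CPM without GFP, while the mitochondrial sum was 6149 and 4028 CPM against 3191 and 3779 CPM. This ratio is a description, with no test.

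**Figure D5:**
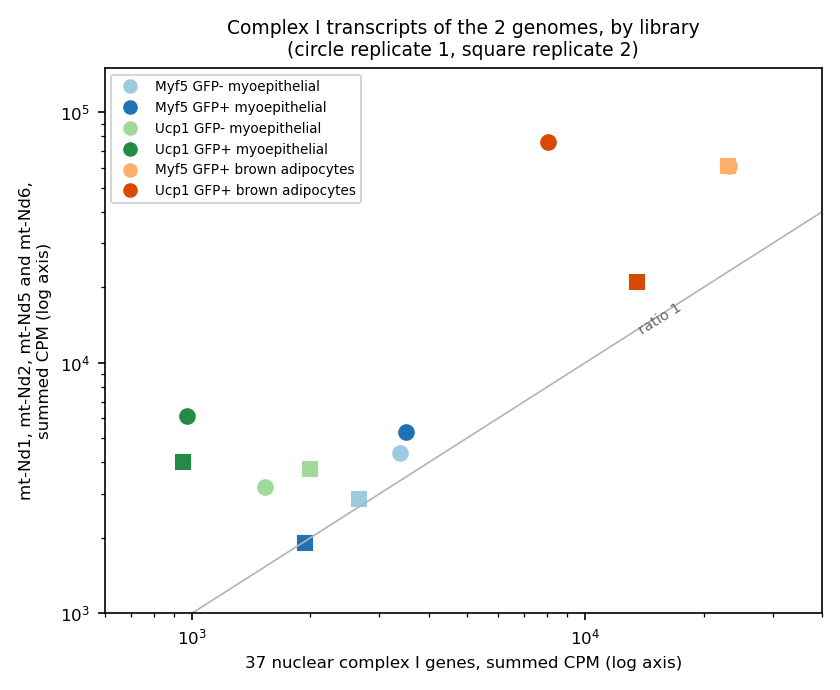
Summed CPM of 4 mitochondrial complex I mRNAs (vertical) against that of 37 nuclear complex I genes (horizontal), both on log axes, for each of the 12 libraries; circles are first and squares second replicates, coloured by group, and the line marks a ratio of 1. The Ucp1 GFP-positive myoepithelial libraries lie farthest left, at 974 and 947 CPM of nuclear transcripts and 6149 and 4028 CPM of mitochondrial ones, within or just above the span of the other mammary libraries on the vertical axis.

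In the Ucp1 line, several nuclear genes that serve mitochondrial RNA fell with GFP. Of 17 genes for transcription and replication of the chromosome 5 were called lower, of 19 for RNA processing 6, and of 25 for the mitochondrial ribosome 6, where 14% of all genes were called lower, with 0 called higher in each list. With a block for the replicate number within each line, edgeR called none of them and 0 of all 15685 genes tested. Among them, Tfb2m, a transcription factor that opens the mitochondrial promoters, was at 0 CPM in both GFP-positive libraries and at 10.3 and 11.6 CPM in the GFP-negative ones (edgeR adjusted p = 0.00139). Lrpprc, which stabilises mitochondrial mRNAs, was at 0 against 21.9 and 17.9 CPM (edgeR adjusted p = 0.00154). Mrpl9, a mitochondrial ribosomal protein, was at 0 against 19.9 and 21.6 CPM (edgeR adjusted p = 0.00117). All of these were genes of low level in libraries with few genes detected, and whether sparse detection bears on them was not tested. Nuclear complex I, complex III, complex IV and the ATP synthase gave 1 (Ndufa8), 0, 1 (Cox7a2) and 1 (Atp5g3) lower calls of 37, 9, 12 and 16, and the PGC-1 and NRF regulators 1 (Ppargc1b) of 9. In the Myf5 line 0 genes of these lists were called with GFP, where 0% of all genes were called, so this sets the lists apart from nothing.

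In brown adipocytes, most nuclear respiratory genes lay lower in Ucp1 than in Myf5 libraries without overlap. This held for 37 of 37 complex I genes, 9 of 9 of complex III, 12 of 12 of complex IV and 11 of 16 of the ATP synthase, where 28.3% of all genes were lower without overlap, and for 1 of 12 mitochondrial mRNAs. None of these nuclear genes was called by edgeR at an adjusted p under 0.05 (1.32% of all genes were). Their median log2 differences ran from -0.95 to -1.18. Most genes of the complex I list also lay lower in the Ucp1 line in mammary cells. Among GFP-positive cells, 34 of 37 complex I genes lay lower in Ucp1 libraries without overlap (29.9% of all genes), and 17 of 37 of complex I, 3 of 9 of complex III, 4 of 12 of complex IV and 9 of 16 of the ATP synthase were called lower (15.2% of all genes). Among GFP-negative cells, 27 of 37 complex I genes lay lower without overlap (17.8%), and 0 were called (0% of all genes were). In brown adipocytes the complex I sums were 23229 and 23101 CPM in Myf5 and 8030 and 13549 CPM in Ucp1 libraries. Other lists moved with the line as well: 10 brown adipocyte markers summed to 35821 and 37573 CPM against 19226 and 18102 CPM, 4 endothelial markers to 10.4 and 289 CPM against 1751 and 933 CPM, and 5 erythroid markers to 39.6 and 138 CPM against 1427 and 461 CPM. Their part in the differences was not tested.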

How the data were processed

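For each library the authors deposited raw counts of reads by gene. The submitters' processing notes name TopHat, HTSeq, DESeq2 and mm10. The sources used here do not give versions, the annotation release or how reads with several matches were handled. RNA was amplified with a SMART-Seq v4 low-input kit and sequenced on an Illumina HiSeq 2500, per the labels' protocols. All count columns were used (0 unused). Symbols, positions and sequences came from GENCODE M21. Groups followed the labels. Libraries held 11027738 to 32956480 counts. A count of 0 allows up to 0.0910 to 0.272 CPM (3 counts, counting error only).

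All 12 libraries entered 1 edgeR 4.0.16 quasi-likelihood fit in R 4.3.3 with a mean per group, TMM factors and filterByExpr (minimum count 10). Standard errors are the log2 difference over the root of its F statistic. Benjamini-Hochberg adjustment ran over all genes tested. Shares were compared with exact permutation tests over libraries in Python 3.11.15. In simulated data for Ucp1 against Myf5 brown adipocytes, 16229 genes tested, the fit recovered 32 of 50 genes changed 4-fold and 3 of 50 changed 2-fold. The simulation gave every gene the same dispersion and had no outlying library. It therefore does not give the power of the real comparisons, where replicate correlations went down to 0.601. Alternatives were other scalings, filters, tools (DESeq2 1.42.0, limma-voom 3.58.1), subsets and left-out libraries.

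Every mitochondrial gene could be named, with nuclear copies sharing much of their sequence, and from each nuclear list up to 4 called genes of smallest adjusted p. Gm13340, and the levels of Atp5g1, Atp5g2 and Atp5g3 over all libraries, were singled out after their values were seen. Members and lists were chosen with earlier results of these data known. One listed symbol, Prorp, was not found. Same-numbered libraries did not deviate together in all groups, so the numbers were not taken as pairs.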

Additional observations from a re-analysis of the deposited data

How the results depend on the processing

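Within each tissue, no alternative called a member between GFP-positive and GFP-negative cells, between GFP-negative cells of the lines or between brown adipocytes of the lines. Between GFP-positive cells of the lines, 1 member was called without the count filter and 1 with DESeq2 (mt-Co1 in each), and 0 to 2 with a library left out. Across tissues, leaving out a library gave 13 to 15 calls in the Myf5 line and 14 to 18 in the Ucp1 line. Fitting the 4 libraries of the tissue comparison alone gave 0 in the Ucp1 line (0 of 13528 genes) and 19 in the Myf5 line (4178 of 13911 genes). The cause was not tested. The counts across tissues take in rRNA and tRNA genes, which could pass the filter only through their brown adipocyte counts.

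Some differences changed sign, and the cause was not tested. The mitochondrial share between brown adipocyte lines became -0.085 on the log2 scale and ran from -10.02 to 13.4 points with a library left out. It became -0.023 points over 5 mRNAs with little nuclear sequence, those of complexes I and III without mt-Atp8. Between GFP-positive and GFP-negative mammary cells it became -0.13 points without the Ucp1 GFP-positive libraries. The whole-copy share for GFP became -0.0063 on the log2 scale and ran from -0.13 to 0.16 points with a library left out. Between brown adipocyte lines, the whole-copy share then ran from -7.15 to 2.48 points, the rRNA share from -0.28 to 1.06 and the tRNA share from -0.012 to 0.52. Single-gene log2 differences with a library left out ran from -0.59 to 0.96 for mt-Nd6 with GFP in the Myf5 line, from -0.32 to 1.81 for mt-Co1 and -0.57 to 3.71 for mt-Nd3 with GFP in the Ucp1 line, and from -3.28 to 1.53 for mt-Atp8 across tissues in the Ucp1 line. No log2 fit was made for rRNA and tRNA shares, which hold zeros.

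Replicate numbers went with a shared deviation in the Myf5 mammary cells but not in all groups, so they were not taken as pairs: the correlation of same-numbered deviations was 0.619 between the Myf5 mammary groups, 0.0861 between the Ucp1 mammary groups and -0.181 between the brown adipocyte groups. With the replicate number as a block, 17 members were called across tissues in the Myf5 line (2635 of 16953 genes), 18 in the Ucp1 line (3802 of 16953 genes) and 0 elsewhere. The 17 and the 18 include rRNA and tRNA genes that passed the filter only through their brown adipocyte counts.

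Counts over all genes moved more. DESeq2 called 718 genes for GFP in the Myf5 line (edgeR 0), 4152 in the Ucp1 line (2423), 1453 between brown adipocytes (223), 45 between GFP-negative cells (0), 5368 between GFP-positive cells (2934) and 5616 across tissues in the Myf5 line (3350). Limma-voom called 567, 5146 and 42 in the first 3 of these. For brown adipocytes, RLE factors gave 135, the block 76 and the tissue alone 755. For GFP in the Ucp1 line, the mammary libraries alone gave 1488 and a block within each line 0. Another scaling moved the median of all genes in that comparison from -0.69 to -0.51 (log2).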
